A study of Mus musculus with 4 samples.

Results

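The 40 genes described here encode the enzymes and carriers of glycolysis, lactate release and the pentose phosphate pathway, with genes of the hypoxia response. They were chosen by name, with earlier results of these data known. Each was read from the array probe set of highest mean signal among those assigned to that gene alone. Of the 40, 35 were measured among 22180 genes. Gpi1, Aldoa, Eno1, G6pdx and Tkt had no probe set assigned to them alone and were not analysed here. The comparison was between resting and proliferating regulatory T-cells (Tregs), with 2 arrays of each. Both groups carried the label Treg and came from NOD mice, which become diabetic spontaneously through autoimmunity. In both, Tregs had spent 5 days with dendritic cells grown from bone marrow in GM-CSF (G-BMDCs), and were then sorted by dilution of a tracking dye, with undivided cells as resting Tregs and divided cells as proliferating Tregs. No treatment or allele set the groups apart, so division, and whatever else the sort separated, was the only labelled difference. The sources used here do not give the age of the mice or say that the 2 arrays of a group came from separate cultures, so the p-values reflect the spread of these arrays alone, and that spread may be technical.

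Glycolysis splits glucose into 2 molecules of pyruvate. A preparatory phase spends ATP on hexose phosphates, and a triose phase returns ATP and ends in pyruvate, which lactate dehydrogenase can turn to lactate for export. The pentose phosphate pathway leaves glycolysis at glucose 6-phosphate, and its oxidative branch yields NADPH while its non-oxidative branch exchanges sugars with glycolysis and supplies ribose for nucleotides. Hypoxia-inducible factor 1 (HIF-1) is a transcription factor whose alpha subunit is hydroxylated by prolyl hydroxylases and degraded when oxygen is plentiful, and many of its known target genes encode glycolytic enzymes. Dividing T-cells are known to raise glucose uptake and lactate production, and Tregs are known to depend less on glycolysis than effector T-cells do.

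Several of these genes are textbook HIF-1 targets, so the 250 bases before the transcription start are shown for 4 members with large rises, Fam162a, Pgk1, Bnip3 and Hif1a, whose windows hold the letters searched, and for Tpi1, a member with a large rise whose window holds none of them. These members were chosen after their values were seen. The sequences are from RefSeq on build GRCm38.p6, each written 5′ to 3′ on the strand of its gene, with capitals at ACGTG or GCGTG on either strand, the core letters of the hypoxia response element, and at the E-box CACGTG, which holds ACGTG.

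Fam162a, chr16:36071562-36071811, minus strand: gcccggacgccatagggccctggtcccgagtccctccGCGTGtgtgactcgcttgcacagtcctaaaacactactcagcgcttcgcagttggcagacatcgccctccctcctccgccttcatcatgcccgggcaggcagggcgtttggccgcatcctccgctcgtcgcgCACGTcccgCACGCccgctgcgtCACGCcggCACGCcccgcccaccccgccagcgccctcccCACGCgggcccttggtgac
Pgk1, chrX:106186850-106187099, plus strand: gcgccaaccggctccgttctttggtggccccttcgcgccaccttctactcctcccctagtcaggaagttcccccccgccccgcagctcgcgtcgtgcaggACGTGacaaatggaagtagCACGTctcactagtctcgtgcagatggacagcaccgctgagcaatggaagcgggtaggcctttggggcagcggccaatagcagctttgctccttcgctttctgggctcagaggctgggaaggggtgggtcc
Bnip3, chr7:138909507-138909756, minus strand: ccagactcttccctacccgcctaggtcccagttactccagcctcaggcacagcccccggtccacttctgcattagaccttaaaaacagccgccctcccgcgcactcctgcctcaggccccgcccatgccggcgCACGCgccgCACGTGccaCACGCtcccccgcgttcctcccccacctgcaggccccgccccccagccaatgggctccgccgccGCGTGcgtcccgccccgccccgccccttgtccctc
Hif1a, chr12:73907617-73907866, plus strand: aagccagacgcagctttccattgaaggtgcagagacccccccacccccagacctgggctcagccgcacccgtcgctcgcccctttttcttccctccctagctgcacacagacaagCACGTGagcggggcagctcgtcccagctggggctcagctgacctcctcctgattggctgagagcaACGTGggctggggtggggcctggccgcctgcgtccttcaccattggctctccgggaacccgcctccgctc
Tpi1, chr6:124814159-124814408, minus strand: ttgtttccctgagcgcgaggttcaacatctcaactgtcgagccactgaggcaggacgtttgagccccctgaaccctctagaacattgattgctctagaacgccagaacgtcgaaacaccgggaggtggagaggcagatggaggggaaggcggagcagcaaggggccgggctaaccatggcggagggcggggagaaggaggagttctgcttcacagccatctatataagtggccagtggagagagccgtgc

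The Fam162a window held 1 copy of ACGTG and 5 of GCGTG, counting both strands, and the Pgk1 window held 2 copies of ACGTG. The Bnip3 and Hif1a windows each held the E-box. A window was used for 34 of the 35 measured members, and none for Slc2a3. Member windows on 1 chromosome, where no measured member is annotated, were left out, which was not done for the windows of all genes. Of the 34, 31 had at least 1 window with a core. In the same number of bases, 36 of 44 member windows (81.8%) held a core, against 38.6% of 32851 windows of all genes, while the median share of G and C was 60.0% in member windows and 52.4% in all windows. The core was in 12 of 14 members that rose by at least 1 log2 unit and in 19 of 20 that did not. ACGTG alone was in 9 of those 14 and 10 of those 20. These matches are a description of letters, not of binding.

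Among the 35 measured members, 27 were higher in proliferating Tregs and 2 were lower at an adjusted p under 0.05 in limma, where 25.6% of all genes tested were higher and 34.5% were lower. The remaining 6, Hk1, Pfkm, Aldoc, Pfkfb3, Eno2 and Rpia, did not pass the test. The median log2 fold change, proliferating minus resting, was 0.79 over the members and -0.17 over all genes. A rise of at least 1 log2 unit was called for 14 members, where 12.6% of all genes had one. The arrays of the 2 groups did not overlap for 32 members, where 81.2% of all genes did not overlap. Of the 32, 30 were higher and 2 lower, beside 33.0% and 48.1% of all genes, and 60.1% of all genes were called in either direction. Signals are log2 values as deposited, and levels of different genes are not compared.

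**Figure D1:**
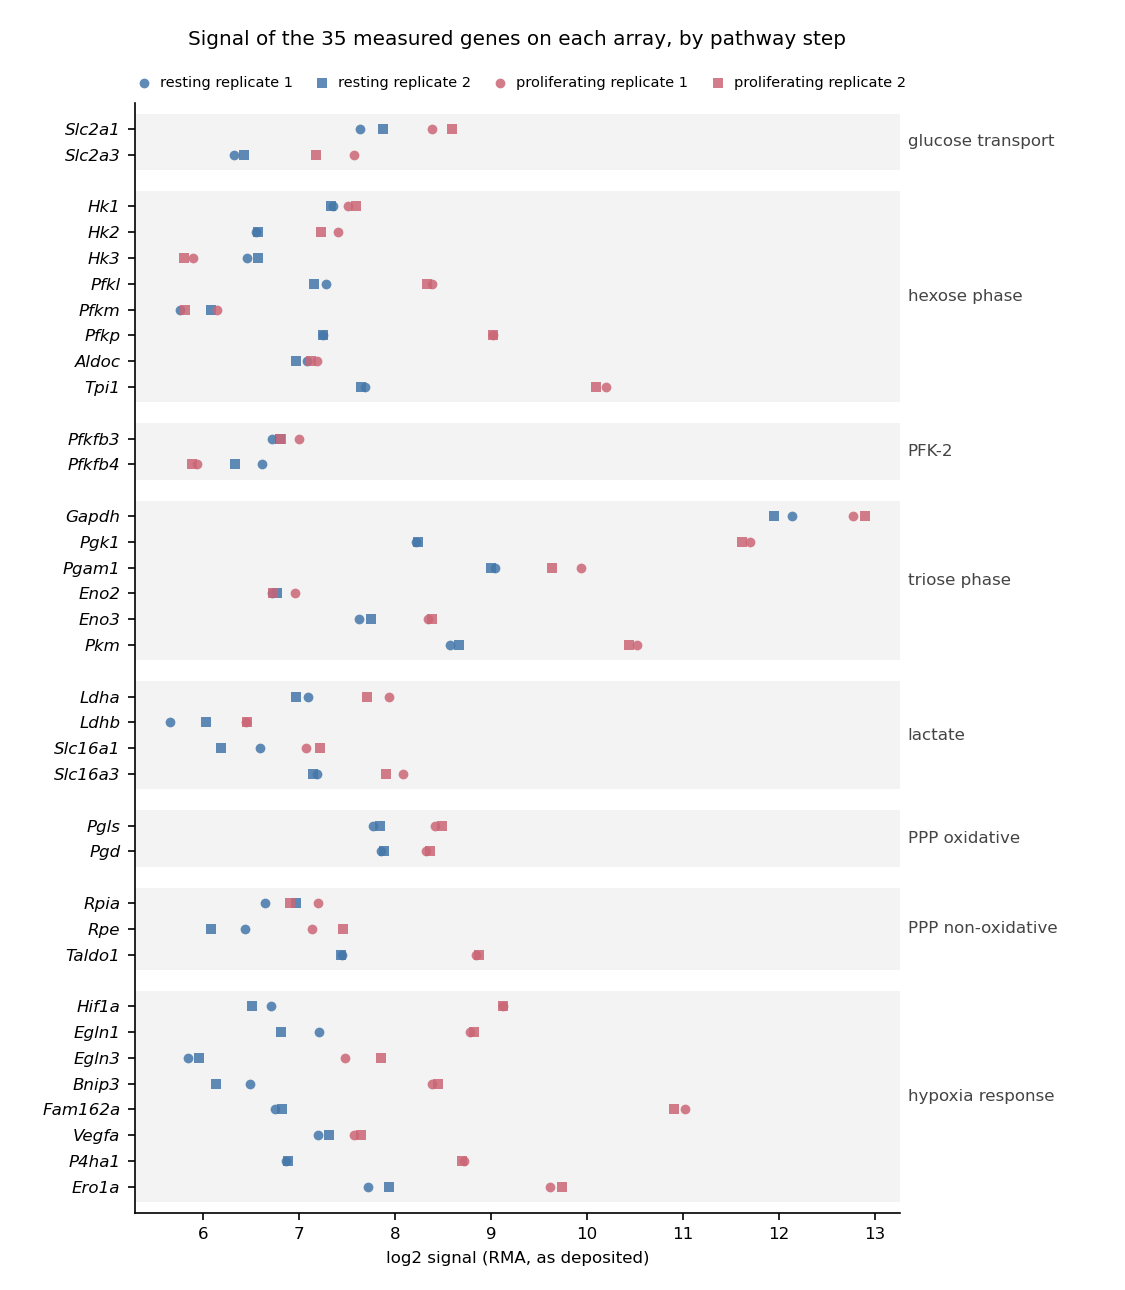
Log2 signal (RMA, horizontal axis) of the 35 measured genes on the 2 resting arrays (blue) and the 2 proliferating arrays (red), grouped by pathway step, with circles for replicate 1 and squares for replicate 2. The red and blue points stand apart for 32 of the 35 genes, as they do for 81.2% of all genes. The gap is widest for Fam162a and Pgk1.

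Many members were dim in resting Tregs. With no detection calls used, the 95th percentile of 1425 odorant, vomeronasal and bitter taste receptor genes on each array served as a mark of little or no RNA, at 7.05 on both resting arrays and at 6.47 and 6.41 on the proliferating arrays. Of the 35 members, 16 lay below it on both resting arrays, 10 of them called higher, and 3, Hk3, Pfkm and Pfkfb4, lay below it on every array. The 10 were Slc2a3, Hk2, Ldhb, Slc16a1, Rpe, Hif1a, Egln3, Bnip3, Fam162a and P4ha1, whose fold changes are therefore measured from a resting signal near background. The 2 members that fell were both dim in both groups. Among the receptor genes themselves 394 were lower and 76 higher, with a median log2 fold change of -0.18. Leaving out genes dim on all arrays kept 32 members, of which 27 were higher by limma, where 52.6% of the 10536 genes kept were higher, and 14 were higher by at least 1 log2 unit, where 25.9% of those genes were. The filter removed both members that fell and kept those 10 members through their proliferating arrays, so nothing is read from these counts.

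The sorted populations differed in more than these genes. Of the sorted cell type's markers, 6 of 6 Treg and 6 of 6 measured T-cell genes were higher in proliferating Tregs. The mean log2 signal of the Treg list was 7.54 to 7.55 on the resting arrays and 10.00 to 10.02 on the proliferating arrays. Foxp3, the Treg lineage factor, had a log2 fold change of 1.88 and the division marker Mki67 one of 2.30. All 13 neutrophil markers were lower, their mean falling from 8.92 and 9.07 to 6.20 and 6.13, and the B-cell list was lower in 8 of 8 measured genes, its mean going from 8.55 and 8.64 to 5.98 on both arrays. Of 23 dendritic and myeloid markers 11 were higher, Clec4n by 4.20 and Ccl17 by 3.57, and 5 were lower, H2-Ab1 by a log2 fold change of -2.56, and their mean went from 7.21 and 7.32 to 7.81 and 7.73. All 4 measured erythroid markers were lower, Slc4a1 by a log2 fold change of -2.09. Of 6 CD8 and NK-cell markers 3 were lower, Cd8a (-1.47) and Cd8b1 (-0.99) among them, and 1 was higher. Of 5 platelet markers 3 were lower and Pf4 was higher by 4.11. Below the dim level were 6 of the 8 B-cell and 8 of the 13 neutrophil markers on both proliferating arrays, none and 2 of them on both resting arrays, and 6 and 12 of the 23 dendritic and myeloid markers on both proliferating and both resting arrays. The part of these cells in the members' changes was not tested. In bulk RNA, fewer cells of a type and less of its RNA per cell cannot be told apart.

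Glucose enters T-cells through facilitative carriers, and the members Slc2a1 and Slc2a3 rose on the deposited values, while both changes were below 0 after centring on housekeeping genes, a scaling taken up further on. None of the 5 other facilitative carriers looked up here rose. Slc2a2 (log2 fold change -0.48) and Slc2a4 (-0.98) were lower, both below the dim level on every array, and Slc2a6, Slc2a8 and Slc2a9 did not pass the test. Slc2a1, the carrier GLUT1, gave 7.63 and 7.87 on the resting arrays and 8.38 and 8.59 on the proliferating arrays, a log2 fold change of 0.74 (SE 0.15, adjusted p = 0.00439). Slc2a3, the high-affinity carrier GLUT3, gave 6.32 and 6.42 against 7.56 and 7.17, a log2 fold change of 1.00 (SE 0.16, adjusted p = 0.00167). The resting and proliferating arrays did not overlap for either carrier. A second, dimmer probe set of Slc2a1 did not rise, at a log2 fold change of -0.13 (adjusted p = 0.492), so the rise of Slc2a1 rested on 1 of its 2 probe sets, and without resting replicate 1 it was not called.

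Of the hexokinases, which trap glucose in the cell as glucose 6-phosphate, Hk2 rose, Hk3 fell and Hk1 did not pass the test. Hk2, the inducible isoform of muscle and of many tumours, gave 6.55 and 6.57 on the resting arrays and 7.40 and 7.22 on the proliferating arrays, a 1.69-fold rise (adjusted p = 0.00236) from below the dim level that became a log2 fold change of -0.33 after housekeeping centring. Hk1, the isoform found in most tissues, gave 7.35 and 7.33 against 7.51 and 7.59, and its log2 fold change of 0.21 (95% interval -0.08 to 0.51) did not pass the test, with an adjusted p of 0.178. Hk3, an isoform known from myeloid cells, was 1 of the 2 members that fell, from 6.46 and 6.57 to 5.89 and 5.80, by 0.66 on the log2 scale (adjusted p = 0.00374), and lay below the dim level on every array. The within-array difference between Hk2 and Hk1 changed by 0.54, with an exact two-sided permutation p of 0.333. That is the smallest p that 2 arrays against 2 allow, so a difference between isoforms could not pass a test here.

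Phosphofructokinase commits glucose to glycolysis, and its platelet and liver subunits rose while its muscle subunit did not pass the test. Pfkp, the platelet-type subunit, gave 7.25 on both resting arrays and 9.02 and 9.01 on the proliferating arrays, a 3.40-fold rise (log2 fold change 1.77, SE 0.12, adjusted p = 3.44e-05). Pfkl, the liver-type subunit, gave 7.28 and 7.15 against 8.38 and 8.33, a 2.21-fold rise (adjusted p = 2.95e-04). Pfkm, the muscle-type subunit, gave 5.76 and 6.08 against 6.14 and 5.81, with overlapping arrays and a log2 fold change of 0.05 (95% interval -0.35 to 0.45, adjusted p = 0.805). All 4 of its arrays lay below the dim level. The log2 fold change of Pfkp was 0.62 above that of Pfkl, and the within-array differences of the 2 groups stayed apart (exact two-sided permutation p = 0.333).

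The bifunctional PFK-2 enzymes make and remove fructose 2,6-bisphosphate, an activator of phosphofructokinase, and of the members Pfkfb4 fell and Pfkfb3 did not pass the test. Pfkfb4 fell from 6.61 and 6.33 on the resting arrays to 5.93 and 5.88 on the proliferating arrays, a log2 fold change of -0.57 (SE 0.14, adjusted p = 0.0116). Pfkfb3 gave 6.71 and 6.80 against 6.99 and 6.81, a log2 fold change of 0.15 that did not pass the test (adjusted p = 0.372). Pfkfb2, which is no member, did not pass the test either (adjusted p = 0.0834). Pfkfb4 lay below the dim level on every array. Its fall was not called without resting replicate 1, after quantile normalization or median centring, or with the methods' t-test.

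Aldolase and triose phosphate isomerase end the preparatory phase. Tpi1, which interconverts the triose phosphates, rose 5.57-fold, from 7.69 and 7.64 on the resting arrays to 10.19 and 10.09 on the proliferating arrays (log2 fold change 2.48, SE 0.13, adjusted p = 1.35e-05). Aldoc, the brain-type aldolase, stayed at 7.08 and 6.97 against 7.18 and 7.12, a log2 fold change of 0.13 (95% interval -0.17 to 0.43, adjusted p = 0.411). Of the 8 genes measured in the preparatory phase, 4 rose, 1 fell and 3 did not pass the test. Of all genes, 25.6% were higher and 34.5% lower.

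Of the 6 triose-phase genes measured, 5 rose, where 25.6% of all genes were higher. The largest rise in the 2 pathways of sugar breakdown was that of Pgk1, phosphoglycerate kinase, the first ATP-yielding step. It gave 8.21 and 8.24 on the resting arrays and 11.69 and 11.61 on the proliferating arrays, a 10.7-fold rise (log2 fold change 3.43, SE 0.13, adjusted p = 7.67e-06). Pkm, the pyruvate kinase of most tissues, gave 8.57 and 8.67 against 10.52 and 10.44, a 3.64-fold rise (adjusted p = 3.18e-05). The arrays do not separate the splice forms of Pkm in the values used here. For both genes the gap between the groups was many times the gap between arrays of a group.

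The other triose-phase genes moved less. Gapdh, glyceraldehyde 3-phosphate dehydrogenase, is often used as a reference gene, and it gave 12.13 and 11.95 on the resting arrays and 12.77 and 12.90 on the proliferating arrays, a 1.74-fold rise (adjusted p = 0.00210) that became a log2 fold change of -0.29 after housekeeping centring. Its 3 probe sets had log2 fold changes of 0.80, 0.85 and 1.47. Pgam1, a phosphoglycerate mutase, rose from 9.043 and 9.002 to 9.93 and 9.63 (log2 fold change 0.76, adjusted p = 0.00362), but its log2 fold change was -0.49 after quantile normalization, where it was called lower (adjusted p = 0.0323), and -0.32 after housekeeping centring. Its second probe set had a log2 fold change of 0.95. Mouse Gapdh and Pgam1 have many near-identical processed copies in the genome, so their signal may include RNA of copies.

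Enolase makes phosphoenolpyruvate, and of its measured members Eno3 rose and Eno2 did not pass the test. The difference between them was not tested. Eno3, the muscle-type enolase, gave 7.62 and 7.75 on the resting arrays and 8.34 and 8.38 on the proliferating arrays, a 1.60-fold rise (adjusted p = 0.00336) that became a log2 fold change of -0.0911 after quantile normalization and of -0.41 after housekeeping centring. Eno2, the neuronal type, gave 6.72 and 6.77 against 6.95 and 6.73, with overlapping arrays and a log2 fold change of 0.09 (95% interval -0.23 to 0.42, adjusted p = 0.570). Eno2, Tpi1 and Gapdh lie on chromosome 6, with 4 annotated genes between Eno2 and Tpi1, and their log2 fold changes were 0.09, 2.48 and 0.80.

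All 4 genes of lactate production and transport rose on the deposited values, by log2 fold changes between 0.61 and 0.83. Of all genes, 25.6% were higher. All 4 changes were below 0 after housekeeping centring. Ldha, the subunit that favours lactate formation, gave 7.09 and 6.97 on the resting arrays and 7.93 and 7.71 on the proliferating arrays (log2 fold change 0.79, SE 0.14, adjusted p = 0.00241). Ldhb, the heart-type subunit, gave 5.65 and 6.03 against 6.45 on both proliferating arrays (log2 fold change 0.61, SE 0.16, adjusted p = 0.0122). It lay below the dim level on both resting arrays and on proliferating replicate 1. The changes of the 2 subunits differed by -0.18, within the spread of the arrays (exact two-sided permutation p = 0.667). The call for Ldhb was lost without resting replicate 1 and with the methods' t-test.

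Of the monocarboxylate carriers, which move lactate across the membrane, the members Slc16a3 and Slc16a1 rose. Slc16a7, the carrier MCT2, which is no member, was below the dim level on every array and was not called (adjusted p = 0.146). Slc16a3, the carrier MCT4 of cells that export lactate, gave 7.19 and 7.14 on the resting arrays and 8.08 and 7.90 on the proliferating arrays (log2 fold change 0.83, SE 0.13, adjusted p = 0.00155). Slc16a1, the widely expressed carrier MCT1, gave 6.59 and 6.18 against 7.07 and 7.21 (log2 fold change 0.76, SE 0.17, adjusted p = 0.00637). Their changes differed by 0.07 (exact two-sided permutation p = 0.667), as those of Slc2a3 and Slc2a1 differed by 0.26 (p = 0.667), both within the spread of the arrays. The call for Slc16a1 was lost without resting replicate 2 and with the methods' t-test. Over the 9 isoform pairs compared, no exact p was below 0.333, and the adjusted values ran from 0.60 to 1. Differences that involve Hk3, Pfkm or Pfkfb4 are not given, since these genes were below the dim level on every array.

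**Figure D2:**
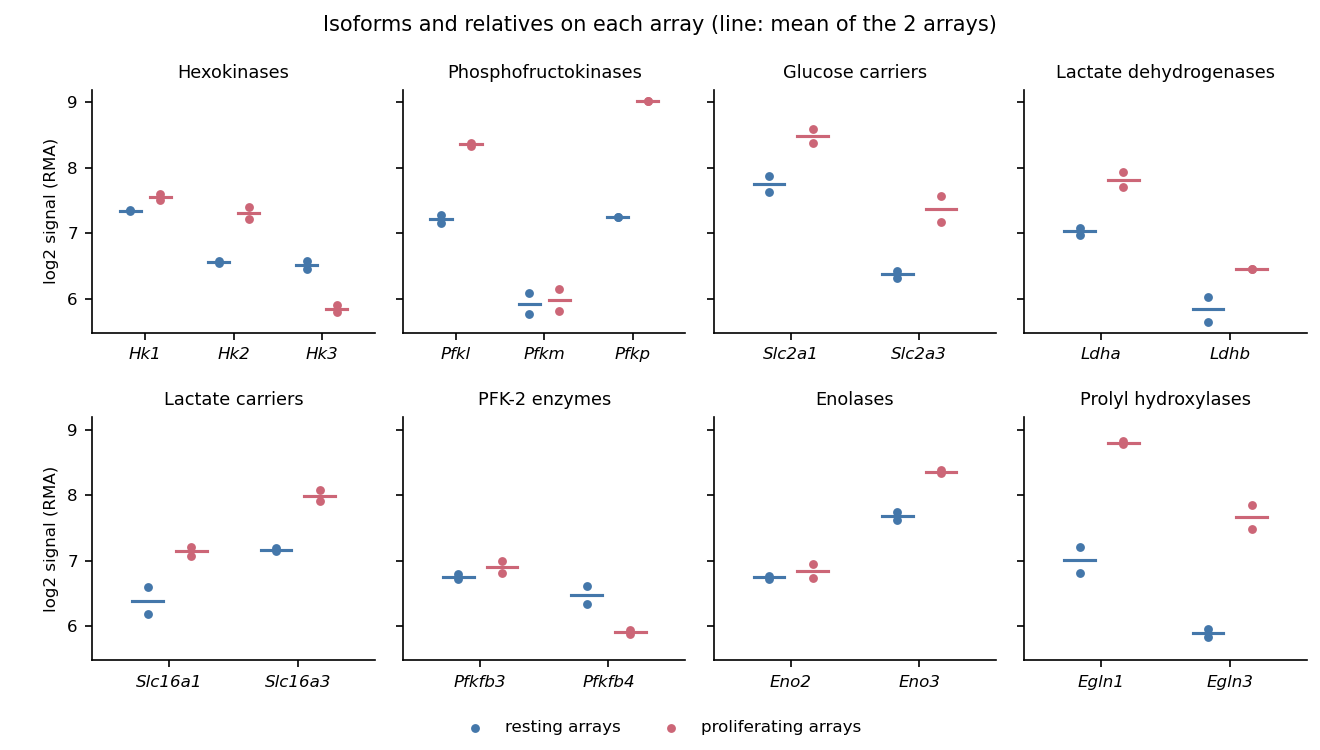
Log2 signal (RMA, vertical axis) of the isoforms and relatives measured in 8 families, with a point for each resting (blue) and proliferating (red) array and a line at the mean of the 2 arrays. Hk3 and Pfkfb4 are the genes whose red points lie below the blue ones, and Pfkp and Egln1 show wide gaps in the other direction.

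Of the 5 pentose phosphate genes measured, 4 rose on the deposited values, where 25.6% of all genes were higher. Of these 4, Taldo1 alone stayed above 0 after housekeeping centring. In the oxidative branch, Pgls, which opens the lactone ring, gave 7.76 and 7.84 on the resting arrays and 8.42 and 8.49 on the proliferating arrays (log2 fold change 0.65, SE 0.13, adjusted p = 0.00374). Pgd, 6-phosphogluconate dehydrogenase, gave 7.85 and 7.89 against 8.32 and 8.36 (log2 fold change 0.47, SE 0.12, adjusted p = 0.0134). The proliferating arrays lay above the resting ones for both. The call for Pgd was lost when either resting replicate was left out.

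In the non-oxidative branch 2 of 3 measured genes rose, where 25.6% of all genes were higher. Taldo1, transaldolase, gave 7.45 and 7.43 on the resting arrays and 8.84 and 8.87 on the proliferating arrays, a 2.67-fold rise (adjusted p = 8.95e-05). Rpe, the ribulose phosphate epimerase, gave 6.43 and 6.08 against 7.13 and 7.45, a 2.05-fold rise (adjusted p = 0.00199). Rpia, the ribose phosphate isomerase, gave 6.64 and 6.97 against 7.20 and 6.90, with overlapping arrays and a log2 fold change of 0.25 that did not pass the test (95% interval -0.15 to 0.64, adjusted p = 0.237).

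All 8 hypoxia-response genes rose, 7 of them by at least 1 log2 unit, where 25.6% of all genes were higher and 12.6% by that much. After housekeeping centring 7 stayed higher and Vegfa was lower, where 7.11% of all genes were higher and 82.3% lower. On the deposited values their median log2 fold change was 1.84, beside 0.76 over the 22 glycolysis and lactate genes and 0.65 over the 5 pentose phosphate genes. Hif1a, the oxygen-regulated subunit of HIF-1, gave 6.70 and 6.51 on the resting arrays and 9.12 and 9.13 on the proliferating arrays, a 5.73-fold rise (adjusted p = 1.42e-05). Its second probe set had a log2 fold change of 1.34. The array measures Hif1a RNA, while the subunit is known to be controlled largely through protein stability.

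Of the prolyl hydroxylases that mark the HIF alpha subunits for degradation, the members Egln1 and Egln3 rose. Egln2, the hydroxylase PHD1, which is no member, gave 8.12 and 8.11 on the resting arrays and 7.96 and 7.97 on the proliferating arrays, a log2 fold change of -0.15 that did not pass the test (adjusted p = 0.323). Egln1, the hydroxylase PHD2, gave 7.20 and 6.81 on the resting arrays and 8.78 and 8.82 on the proliferating arrays (log2 fold change 1.79, SE 0.16, adjusted p = 9.89e-05). Egln3, the hydroxylase PHD3, gave 5.84 and 5.95 against 7.48 and 7.85 (log2 fold change 1.77, SE 0.16, adjusted p = 1.02e-04). Their changes differed by -0.03 (exact two-sided permutation p = 1).

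Fam162a, a mitochondrial protein known as a HIF-1 target, had the largest change of all members. It gave 6.74 and 6.82 on the resting arrays and 11.02 and 10.91 on the proliferating arrays, an 18.1-fold rise (log2 fold change 4.18, SE 0.13, adjusted p = 7.67e-06). Bnip3, a mitochondrial protein of mitophagy and cell death, gave 6.48 and 6.13 against 8.39 and 8.44, a 4.32-fold rise (adjusted p = 4.15e-05). Both genes were among those whose promoter windows are printed above.

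Among the genes for secreted products and their processing, P4ha1 and Ero1a rose by more than 1 log2 unit and Vegfa by less. P4ha1, a subunit of the prolyl hydroxylase of collagen, gave 6.86 and 6.88 on the resting arrays and 8.71 and 8.69 on the proliferating arrays, a 3.56-fold rise (adjusted p = 3.04e-05). Ero1a, listed as Ero1l, is an oxidase of the endoplasmic reticulum that serves disulfide formation, and it gave 7.71 and 7.93 against 9.61 and 9.74, a 3.62-fold rise (adjusted p = 4.68e-05). Its second probe set had a log2 fold change of 2.56. Vegfa, the angiogenic growth factor, gave 7.20 and 7.31 against 7.57 and 7.64, and its log2 fold change of 0.35 (SE 0.13, adjusted p = 0.0475) lay just inside the threshold. Leaving out any of the 4 arrays ended the call for Vegfa, as did a block for the replicate number.

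**Figure D3:**
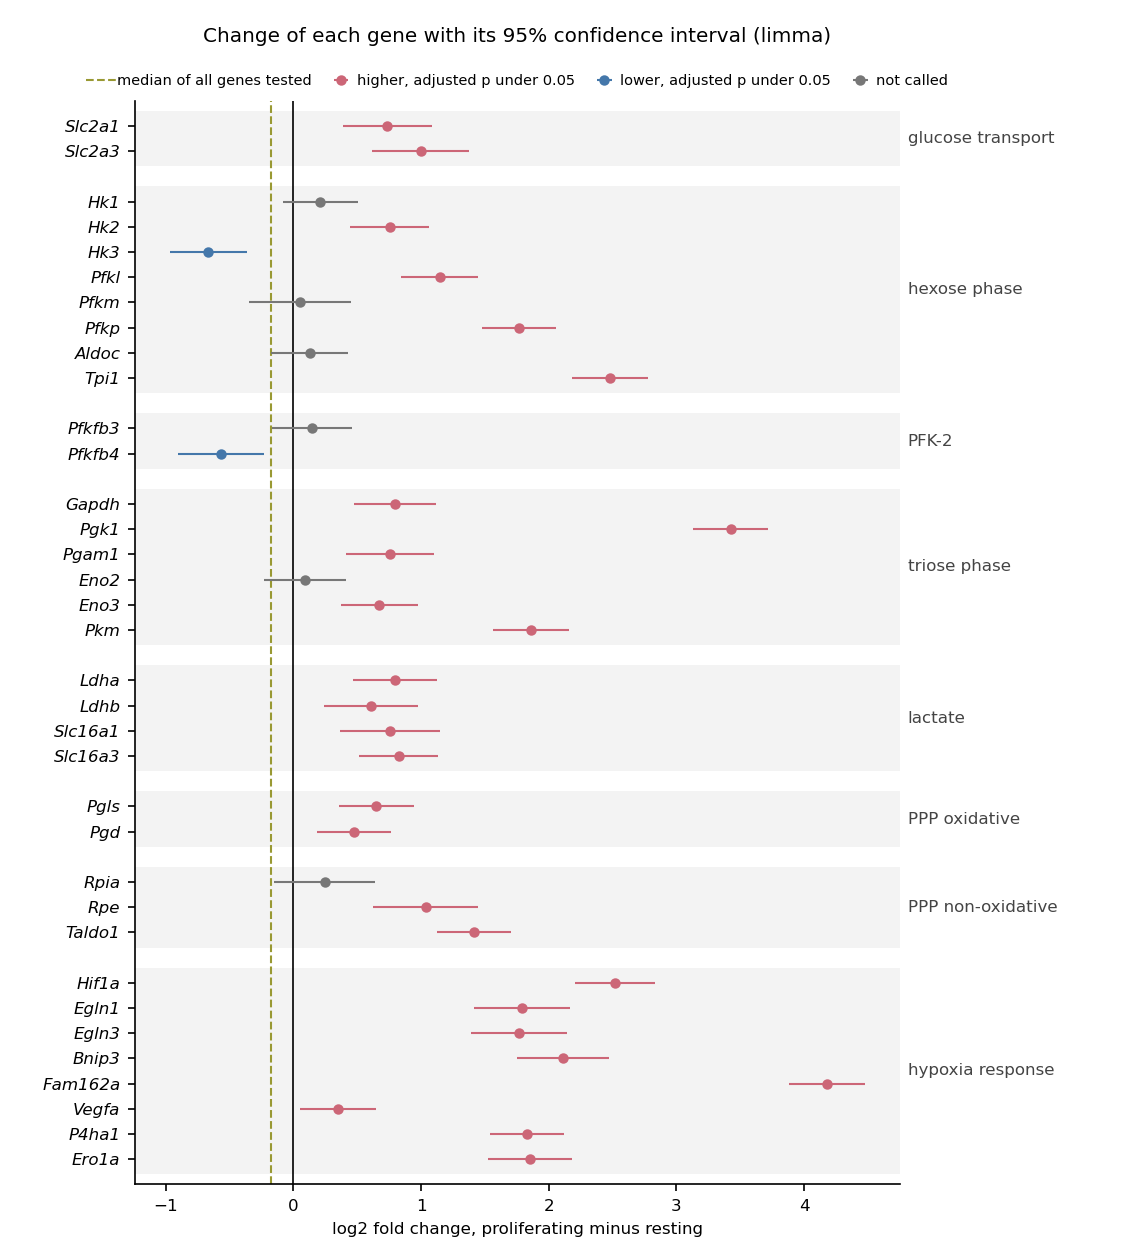
Log2 fold change, proliferating minus resting (horizontal axis), of the 35 genes with limma's 95% confidence interval, grouped by pathway step, with higher genes in red, lower genes in blue and genes that did not pass the test in grey. The dashed line marks the median of all genes at -0.17, and 27 genes are red, 2 blue and 6 grey.

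The sign of a change on these arrays is relative to the scaling of the arrays, since centring shifts every gene alike. The groups also differed in spread, which centring leaves as it is. The standard deviation over all genes was 1.13 on both resting arrays and 1.43 and 1.44 on the proliferating arrays. By rank on its array, Pgd, though called higher, went from percentiles 94.3 and 94.2 to 91.0 and 91.2. Pgk1 went from 96.6 on both resting arrays to 99.7 and 99.6. Setting each array's median equal, which moved the median of all genes by 0.23, gave 31 members higher and 1, Hk3, lower, where 32.8% of all genes were higher and 18.2% lower. Centring on 8 housekeeping genes, a normalization of the kind the methods describe, moved it by -1.08, and 12 members were then higher and 14 lower, where 7.11% of all genes were higher and 82.3% lower. The 12 were 7 of the 8 hypoxia-response genes and 5 of the other 27 genes, namely Pfkp, Tpi1, Pgk1, Pkm and Taldo1. Housekeeping genes themselves were higher in proliferating Tregs in 7 of 8 cases, Hprt by 3.52 log2 units.

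Centring on Cd3d, Cd3e and Cd3g, which sets the T-cell receptor genes equal, moved the median of all genes by -1.97. Then 4 members were higher, Fam162a by 2.21, Pgk1 by 1.46, Hif1a by 0.55 and Tpi1 by 0.51, and 24 were lower, where 1.48% of all genes were higher and 94.7% lower. Of the 24, 1 was a hypoxia-response gene and 23 were of the other 27. Quantile normalization, which moved the median by 0.11, left 20 members higher and 2, Hk3 and Pgam1, lower, where 22.1% of all genes were higher and 23.7% lower, and turned the sign of 8. Of genes called over the whole table, 42.7% were higher on the deposited values, 69.3% without dim genes, 64.3% after median centring, 7.95% after housekeeping centring and 1.54% after Cd3 centring.

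**Figure D4:**
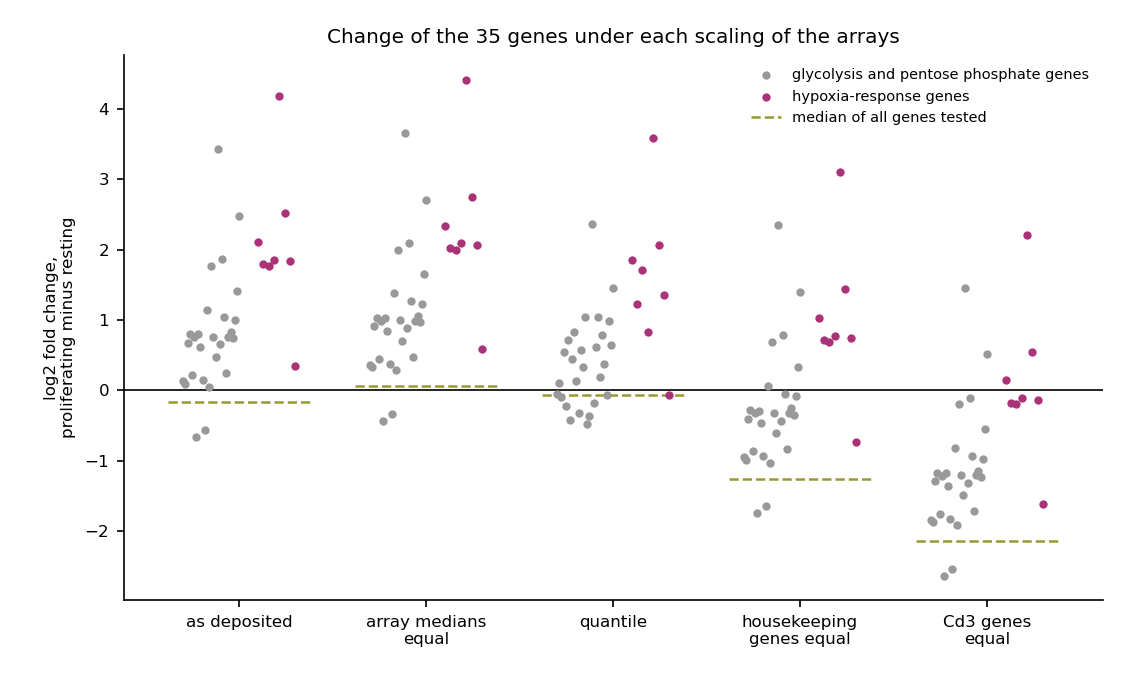
Log2 fold change, proliferating minus resting (vertical axis), of the 27 glycolysis and pentose phosphate genes (grey) and the 8 hypoxia-response genes (purple) on the deposited values and after 4 other scalings of the arrays. The dashed line is the median of all genes, and Fam162a and Pgk1 stay above 0 in every column while most grey points pass below 0 in the columns centred on housekeeping and Cd3 genes.

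Other genes of the same pathways moved in both directions. Of 90 measured on such lists, 31 were higher and 29 lower, with a median log2 fold change of -0.03, beside 25.6% and 34.5% of all genes. With genes dim on all arrays left out, 33 of them were higher and 7 lower, beside 52.6% and 23.3% of the genes kept. That filter keeps a gene through whichever group it is high in, so nothing is read from the filtered counts. Among 27 further genes of glycolysis 6 were higher and 10 lower. The higher ones included Emb (1.82) and Bsg (1.67), chaperones of the monocarboxylate carriers, and the lower ones Gapdhs (-1.06), the sperm isoform, and Slc2a4 (-0.98), the insulin-regulated carrier of muscle and fat, both dim on the proliferating arrays. Of 9 further pentose phosphate genes 4 were higher, led by Prps1 (2.13), which makes phosphoribosyl pyrophosphate for nucleotides, and 2 were lower. Of 7 gluconeogenesis genes 5 were called lower, Fbp1, Fbp2, Pck1, G6pc and Pcx, all below the dim level on every array, and 1, Pck2 (0.37), was higher.

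Of 30 further hypoxia-response genes 14 were higher and 7 lower, beside 25.6% and 34.5% of all genes. The median log2 fold change over the 30 was 0.29, beside 1.84 over the 8 members. Of the higher ones all but Mif and Bhlhe40 lay below the dim level on both resting arrays. All the lower ones lay below it on every array. Ndrg1, a stress-responsive gene, had a log2 fold change of 2.86 (1.92 on its second probe set), the cytokine Mif one of 2.61 and the repressor Bhlhe40 one of 1.94. Epo, the kidney hormone erythropoietin, was called lower but lay below the dim level on every array. Of 17 genes that control glycolysis 6 were higher and 5 lower, beside 25.6% and 34.5% of all genes. Their median log2 fold change was 0.05, and nothing is read from these counts. The higher ones were Prkaa1 (1.09), a catalytic subunit of AMP-activated kinase, Myc (0.89), Arrdc4 (0.84), Akt1 (0.58), Foxo1 (0.53) and Irf4 (0.40). Prkaa1, Arrdc4 and Irf4 were dim on both resting arrays. The lower ones were Mlxipl (-1.13), a glucose-responsive transcription factor, Pik3ip1 (-0.64), Txnip (-0.63), a brake on glucose uptake, Mlxip (-0.40) and Mtor (-0.39). Mlxipl and Pik3ip1 lay below the dim level on every array.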

How the data were processed

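The deposited table held log2 signals of 41345 probe sets on 4 arrays, which per the labels were made from total RNA with the WT PLUS kit and summarised by the authors with RMA in Partek 6.6. The methods name another array design, a housekeeping normalization and Student's t-test, and a tracking dye other than that of the labels. The labels' account was followed, since its values were the ones analysed. Of the probe sets, 23521 had 1 gene in the platform annotation, 1820 several and 16004 none, and only the first were used, 1 per gene (22180 genes, 1082 with more than 1 probe set). The housekeeping list had 8 of 12 genes measured.

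Groups were compared with limma 3.58.1 (R 4.3.3), lmFit and eBayes, on the deposited values with Benjamini-Hochberg adjustment over all 22180 genes and a threshold of 0.05, and the fit was tested on simulated data. With 2 arrays per group the residual degrees of freedom were 2, and their number limits the precision. Arrays correlated at 0.98 within groups and at 0.80 to 0.82 between them. Isoform pairs were compared with an exact permutation test. Alternatives were another prior, a filter on dim genes, averaged probe sets, other scalings, a replicate block, each array left out, the methods' t-test and a fold threshold. The plan was to name all members, up to 4 genes of each other list with any exception, and up to 3 of each marker list. The members and lists were chosen with earlier results of these data known. Promoter windows came from RefSeq on GRCm38.p6.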

Additional observations from a re-analysis of the deposited data

How the results depend on the processing

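Of the 35 members, Pfkp, Tpi1, Pgk1, Pkm, Taldo1, Hif1a, Bnip3, Fam162a, P4ha1 and Ero1a were called higher under each of the 13 alternatives run for single genes, among which Cd3 centring and the fold threshold were not counted. After Cd3 centring Pgk1, Tpi1, Hif1a and Fam162a kept the call, Pfkp (-0.20), Pkm (-0.11), P4ha1 (-0.14), Ero1a (-0.12) and Bnip3 (0.14) lost it, and Taldo1 was called lower (-0.55). The counts of 27 higher and 2 lower members became 12 and 14 after housekeeping centring, 4 and 24 after Cd3 centring, and 14 and 0 both with the methods' t-test after Benjamini-Hochberg and with a fold threshold of 1 log2 unit. The count of lower members was 0 without dim genes, 1 after median centring and 1 with the methods' unadjusted t-test. Leaving out each array in turn gave 23 to 26 higher and 1 to 2 lower members, on the assumption that an array left alone in its group varies as those of the other group do.

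Quantile normalization turned the log2 fold changes of Slc2a1 (-0.0748), Hk1 (-0.23), Aldoc (-0.0522), Pgam1 (-0.49), Eno3 (-0.0911), Pgls (-0.18), Pgd (-0.36) and Vegfa (-0.0680), of which Pgam1 alone was then called lower. Housekeeping centring turned Slc2a1 (-0.35), Slc2a3 (-0.0860), Hk1 (-0.87), Hk2 (-0.33), Pfkm (-1.03), Aldoc (-0.95), Pfkfb3 (-0.94), Gapdh (-0.29), Pgam1 (-0.32), Eno2 (-0.99), Eno3 (-0.41), Ldha (-0.29), Ldhb (-0.47), Slc16a1 (-0.32), Slc16a3 (-0.26), Pgls (-0.43), Pgd (-0.61), Rpia (-0.84), Rpe (-0.0466) and Vegfa (-0.73). Without 1 array Pfkm ranged from -0.11 to 0.22 and Eno2 from -0.0168 to 0.21. The causes were not tested.

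The replicate numbers of the labels were not shown to pair the samples, since same-numbered deviations correlated at 0.0179, and with the replicate block 26 members were higher and 2 lower, with Vegfa lost and no other member's call changed. Over all genes, 5688 were higher and 7647 lower, beside 5545 and 2458 without dim genes, 4893 and 5256 after quantile normalization, 7269 and 4044 after median centring, 1577 and 18262 after housekeeping centring, 329 and 21009 after Cd3 centring, 4379 and 3962 when resting replicate 1 was left out, 4505 and 4428 when it was resting replicate 2, and 2781 and 1531 with the methods' t-test after Benjamini-Hochberg. The methods' unadjusted t-test called 5022 and 5072, and the fold threshold left 2796 and 981. Signal over background limits the fold changes of the 16 members that were dim on both resting arrays.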
